A study of Mus musculus with 4 samples.

Results

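The 10 genes described here, Dlx1, Dlx2, Dlx5, Dlx6, Lhx6, Sox6, Reln, Calb1, Calb2 and Pvalb, are names by which inhibitory interneurons and their classes are commonly recognised. They were taken by name from a table of 23453 genes, and all 10 were found once. The cells were hippocampal neurons in primary culture, prepared from newborn mice of the C57BL/6NCrl strain, and the labels name no sorting step. In the AP bursting group, 2 libraries came from cells given 50 µM bicuculline on day 12 in culture and harvested after 4 h. Bicuculline blocks GABA-A receptors, and neurons freed from inhibition fire action potentials in bursts. In the control group, 2 libraries came from cells given the solvent DMSO, with basal synaptic activity. The labels name no genetic change in either group. The experiment was made 2 times, each on its own preparation of cells, so the comparison rests on 2 preparations.

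Cortical and hippocampal interneurons are born in the ganglionic eminences, where distal-less homeobox factors of the Dlx family switch on the programme of GABAergic neurons. Lhx6 and then Sox6 act further along in the lineage of the medial eminence, which gives the parvalbumin and somatostatin classes. The mature classes differ in calcium-binding proteins, peptides and secreted proteins such as reelin. Several of these markers are not particular to interneurons in the hippocampus: calbindin also fills dentate granule cells, calretinin marks mossy cells and Cajal-Retzius cells in the mouse, and reelin is made in quantity by Cajal-Retzius cells.

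The authors deposited 1 mean of normalized reads per group, and each mean was resolved into the whole reads of its 2 libraries. Each group has 1 deeper and 1 shallower library, called deep and shallow here. The genes resolved in both groups amounted to 21504931 (deep) and 10903438 (shallow) reads after AP bursting and to 20884480 (deep) and 13295328 (shallow) in controls. Libraries of the same depth were more alike than libraries with the same treatment, so each change is also given within the deep pair and within the shallow pair. That pairing was inferred from the data, and which preparation a pair belongs to is not stated. The stimulus was visible in the activity gene Fos, at 19900 (deep) and 41509 (shallow) normalized reads after AP bursting, against 170 (deep) and 150 (shallow) in controls.

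The interneuron genes differed little beside that. None of the 10 was called in the authors' deposited table, where the adjusted p was 1 for each and where 0.61% of all genes were called higher and 0.0% lower at 0.05. limma without a pair term called 0 of 10, with 0 at an unadjusted p below 0.05, against 0.00989% of 20226 tested genes called higher. limma with the pair as a replicate block called Dlx1, Dlx6 and Reln higher and none lower, which is 3 of 10 beside 6.87% of tested genes called higher and 6.1% called lower. Those block calls rest on a variance trend across genes with 1 residual degree of freedom, and without that trend the block called 0 genes in the whole table. All SEs given with the block, here and below, lean on that trend. They do not measure a gene's own spread between the 2 pairs. Reln had log2 changes of 0.18 in the deep pair and 0.73 in the shallow pair, beside a block SE of 0.15. Scaling to total reads moved the median log2 change of all tested genes to -0.16, and under it the block called 0 of the 10. Total reads here are those of genes resolved in both groups, which leaves out 291 abundant genes. With 2 libraries against 2, an exact permutation test of a single gene cannot go below a two-sided p of 0.333, so no such p is given.

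Both AP bursting libraries lay above both control libraries for 4 genes, Dlx1, Dlx6, Lhx6 and Calb2, beside 12.6% of tested genes. Both lay below for 0 genes, beside 11.7%. Within the pairs, 7 of 10 were higher after AP bursting in both pairs, beside 31.6% of tested genes, and Calb1 and Pvalb were lower in both, beside 32.0%. The 7 include Dlx2 and Dlx5, which were level in the deep pair. Scaled to total reads, 4 of 10 were higher in both pairs, beside 20.5% of tested genes, and 2 were lower in both, beside 45.2%. The median log2 change over the 10 was 0.27, beside -0.02 over all tested genes, and was 0.12 without the shallow AP bursting library, 0.50 without the deep one and 0.12 under scaling to total reads. In bulk RNA, fewer cells of a type and less RNA per cell cannot be told apart, so none of these levels separates the number of interneurons from their expression.

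**Figure D1:**
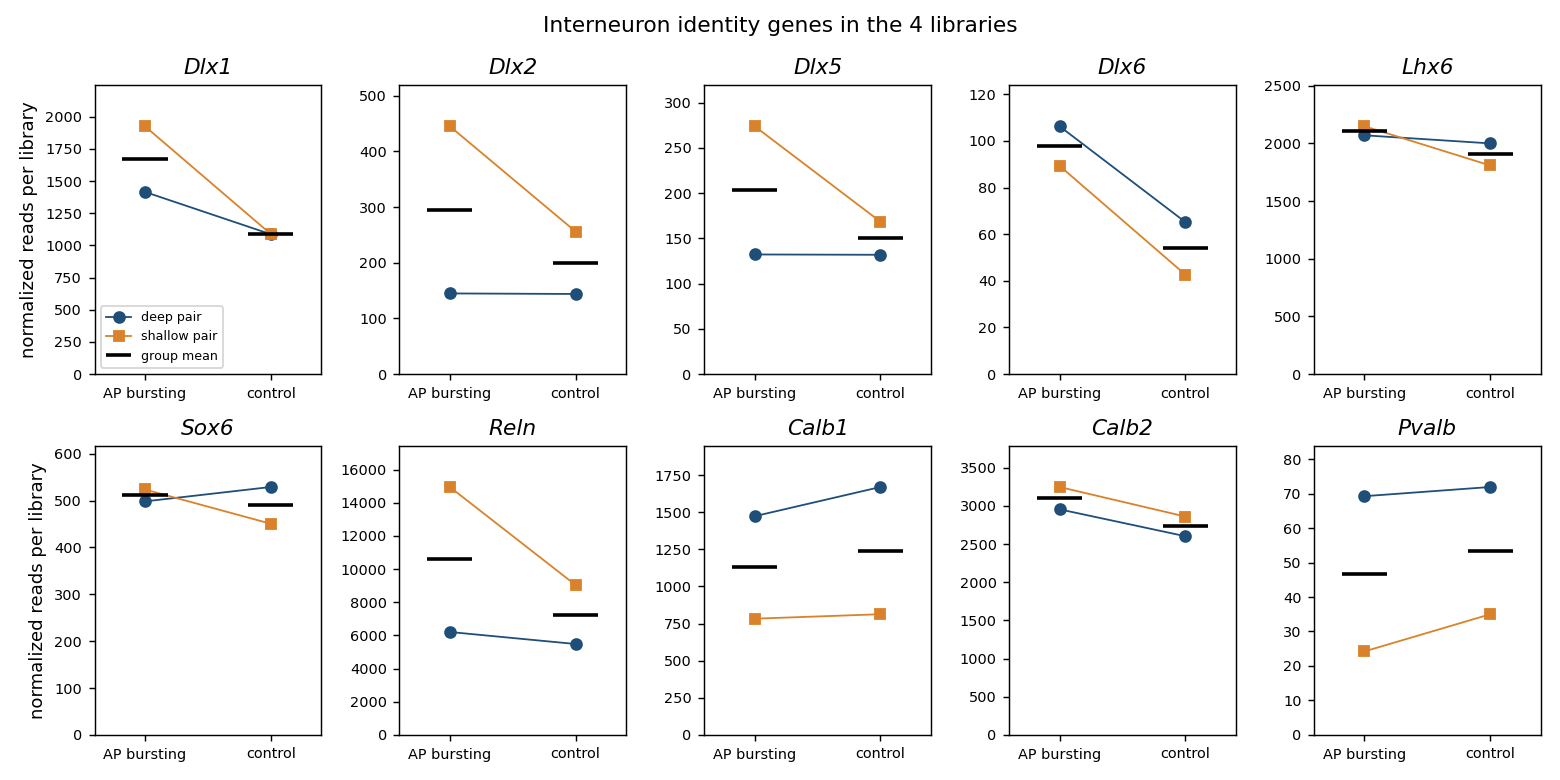
Normalized reads (vertical axes, each from 0) of the 10 genes in the AP bursting and control libraries. Blue circles are the deep pair, orange squares the shallow pair, lines join the libraries of a pair and black bars are group means (n = 2). The shallow AP bursting library stands highest for Dlx1, Dlx2, Dlx5, Reln, Calb2 and Lhx6, while Calb1 and Pvalb separate by pair and not by treatment.

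The Dlx factors lie as 2 neighbouring pairs, Dlx1 on the plus and Dlx2 on the minus strand of chromosome 2, and Dlx6 on the plus and Dlx5 on the minus strand of chromosome 6. The pairs are known to share enhancers. The promoters of Dlx1 and Dlx2 are shown because the 2 neighbours had like changes in the shallow pair and unlike ones in the deep pair. The sequences are the 250 bases before each start from RefSeq (GRCm38.p6), written 5′ to 3′ on the strand of the gene, Dlx1 at chr2:71529195-71529444 (plus strand) and Dlx2 at chr2:71546755-71547004 (minus strand). Capitals mark TGACG, the core of the cAMP response element bound by CREB, a factor that answers to neuronal activity.
Dlx1: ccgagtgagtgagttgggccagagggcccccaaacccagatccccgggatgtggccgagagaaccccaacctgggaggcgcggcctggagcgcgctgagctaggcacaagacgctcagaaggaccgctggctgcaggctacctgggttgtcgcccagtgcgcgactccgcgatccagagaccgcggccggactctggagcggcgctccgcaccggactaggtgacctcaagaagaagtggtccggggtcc
Dlx2: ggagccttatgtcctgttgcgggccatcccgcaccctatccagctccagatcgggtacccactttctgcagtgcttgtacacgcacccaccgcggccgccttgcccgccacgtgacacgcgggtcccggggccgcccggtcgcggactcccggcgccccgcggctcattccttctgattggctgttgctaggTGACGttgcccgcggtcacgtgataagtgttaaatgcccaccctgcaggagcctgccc

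TGACG was searched on both strands and occurred 1 time before Dlx2, 54 to 58 bases ahead of the start, and not in the window of Dlx1. It occurs in 17.8% of 32851 mouse promoter windows of this length. Neither window held TGANTCA, the AP-1 core with any base in the middle (6.75% of windows), or TAATTA, a homeodomain core (4.84%). RefSeq promoters matched 6 of the 10 genes in 14 windows, some genes having several. Among the others Lhx6 had 1 TGACTCA match and Sox6 1 TGACG match, each in 1 of several windows of the gene. The shares above are per window and not per gene. A match is a string of letters and not a binding site.

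Dlx1 (ENSMUSG00000041911) was the most abundant of the 4. It had 1415 (deep) and 1925 (shallow) normalized reads after AP bursting, against 1087 (deep) and 1088 (shallow) in controls. The AP bursting libraries were both above the controls, which hardly differed from each other. AP bursting averaged 1670 ± 361 and control 1087 ± 1.18 (SD, n = 2 each). The ratio was 1.30 (exact 95% counting interval 1.21 to 1.40) within the deep pair and 1.77 (1.63 to 1.92) within the shallow one. These intervals, and all counting intervals below, cover counting error only. limma with the replicate block gave a log2 change of 0.60 ± 0.18 (SE) with an adjusted p of 0.0113. Over 8 settings with the block the adjusted p ran between 0.00983 and 0.342, and 6 of them called the gene. Of these settings only the block as such, without the variance trend, and with scaling to total reads were planned. Among the planned ones only the block as such called any of the 10 genes. The same 8 settings are counted for Dlx6 and Reln below. Exons of Dlx1 overlap the antisense gene Dlx1as over 335 bases, 6.21% of its exonic length, and the libraries do not keep strand.

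Dlx6 (ENSMUSG00000029754), the partner of Dlx5, had a low level and the largest log2 change of the 10 over all 4 libraries. It had 106 (deep) and 89.3 (shallow) normalized reads after AP bursting, against 65.2 (deep) and 42.7 (shallow) in controls, made from 135, 59, 87 and 39 reads in that order. Both AP bursting libraries were again above both controls. The ratio was 1.63 (1.24 to 2.16) within the deep pair and 2.09 (1.37 to 3.22) within the shallow one. limma with the replicate block gave a log2 change of 0.87 ± 0.30 (SE) with an adjusted p of 0.0327, and 4 of 8 settings with the block called the gene, with adjusted p between 0.0193 and 0.221. Dlx6 shares 104 exonic bases (4.38%) with the opposite-strand gene Dlx6os2.

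Dlx2 and Dlx5 did not pass in any fit, and their libraries overlapped between groups. Dlx2 (ENSMUSG00000023391) had 145 (deep) and 445 (shallow) normalized reads after AP bursting, against 144 (deep) and 256 (shallow) in controls. Dlx5 (ENSMUSG00000029755) had 132 (deep) and 274 (shallow) normalized reads after AP bursting, against 132 (deep) and 168 (shallow) in controls. In both genes the deep libraries of the groups were level and the shallow AP bursting library stood apart. The ratio of Dlx2 was 1.01 (0.82 to 1.24) within the deep pair and 1.74 (1.46 to 2.07) within the shallow one. That of Dlx5 was 1.00 (0.81 to 1.25) within the deep pair and 1.63 (1.30 to 2.03) within the shallow one. limma with the replicate block gave adjusted p of 0.321 for Dlx2 and 0.446 for Dlx5. Under scaling to total reads the deep pair turned to log2 changes of -0.10 for Dlx2 and -0.11 for Dlx5. Without the shallow AP bursting library, the log2 change over the remaining libraries, regardless of pair, was -0.40 for Dlx2 and -0.17 for Dlx5, and 0.38 for Dlx1 and 1.00 for Dlx6. Without the deep control library it was -0.01 for Dlx2. In the deep pair of libraries Dlx1 and Dlx6 were higher after AP bursting by log2 0.38 and 0.70, against 0.01 and 0.00 for their neighbours Dlx2 and Dlx5. That difference between neighbours was not tested.

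**Figure D2:**
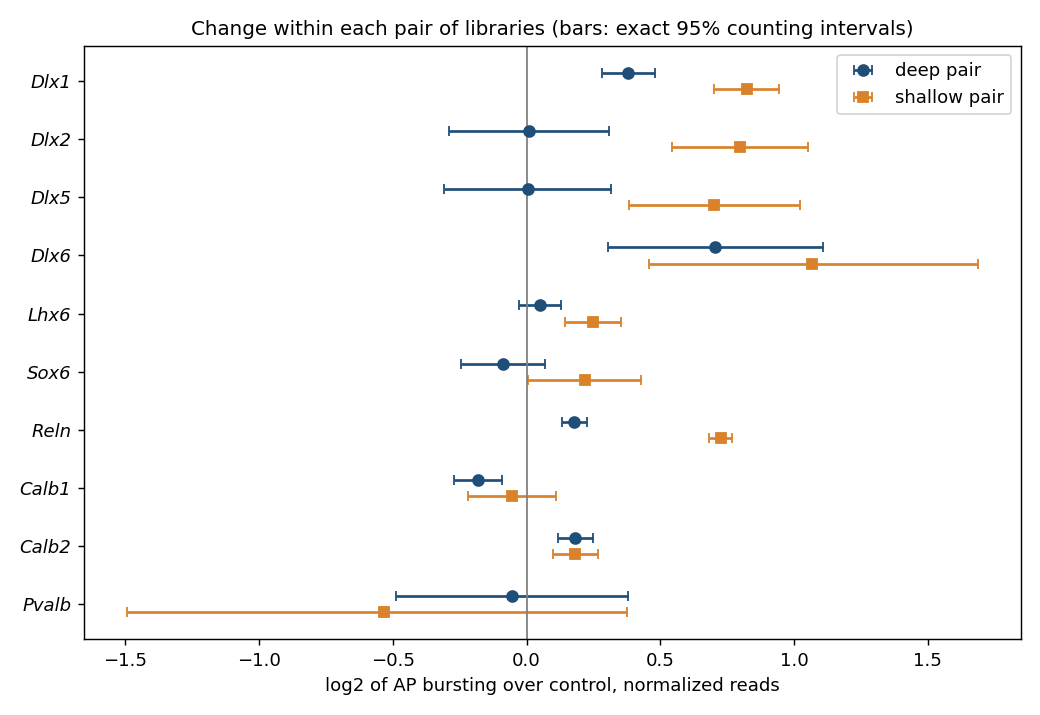
Log2 of AP bursting over control in normalized reads (horizontal axis) for each gene, in the deep pair (blue circles) and the shallow pair (orange squares), with exact 95% counting intervals. The shallow pair lies further to the right for 8 of 10 genes, and the 2 points of Calb2 coincide.

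Lhx6 and Sox6 differed little between the groups. Lhx6 (ENSMUSG00000026890), a LIM homeobox factor needed for the parvalbumin and somatostatin classes, had 2070 (deep) and 2148 (shallow) normalized reads after AP bursting, against 1999 (deep) and 1808 (shallow) in controls. The groups did not overlap, but the gap was small: AP bursting averaged 2109 ± 55.4 and control 1904 ± 135 (SD, n = 2 each). The ratio was 1.04 (0.98 to 1.09) within the deep pair and 1.19 (1.11 to 1.28) within the shallow one, and limma with the replicate block gave a log2 change of 0.15 ± 0.17 (SE), adjusted p 0.694. Under scaling to total reads its deep pair turned to -0.06.

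Sox6 (ENSMUSG00000051910), an SRY-box factor that acts after Lhx6, had 498 (deep) and 524 (shallow) normalized reads after AP bursting, against 529 (deep) and 451 (shallow) in controls. The groups overlapped, and the pairs went opposite ways, with ratios of 0.94 (0.84 to 1.05) within the deep pair and 1.16 (1.00 to 1.34) within the shallow one. The log2 change was 0.07, well within its SE of 0.21. It was -0.08 under scaling to total reads, which lowers all genes nearly alike, and -0.05 without the shallow control library. limma with the replicate block gave it an adjusted p of 0.909. Of 5 SoxD and SoxC relatives of Sox6, limma with the block called 2 higher and 0 lower, beside 6.87% and 6.1% of tested genes. The 2 were the SoxC genes Sox4 and Sox11, known from immature neurons, with log2 changes of 0.90 ± 0.18 and 0.86 ± 0.18 (SE). The SoxC gene Sox12 and the SoxD genes Sox5 and Sox13 had folds of 0.89, 0.93 and 0.97 in the authors' deposited table. The median log2 change of the 5 relatives was -0.10. Of 14 other LIM homeobox genes and cofactors, 0 were called in either direction by limma with the block or by the authors' deposited table, and their median log2 change was 0.33. That median was 0.24 for the 10 with a mean of at least 10 and 0.19 for the 8 with a mean of at least 50. Of the 14, the block called 0 higher and 1 lower under scaling to total reads, and 1 higher and 1 lower with a correction for GC content and length.

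Reln (ENSMUSG00000042453), the secreted glycoprotein that guides neuronal layering and later modulates synapses, was the most abundant of the 10 by reads. It had 6205 (deep) and 14949 (shallow) normalized reads after AP bursting, against 5480 (deep) and 9037 (shallow) in controls. The deep AP bursting library lay below the shallow control library, so the groups overlapped, while each pair was higher after AP bursting. AP bursting averaged 10577 ± 6183 and control 7258 ± 2515 (SD, n = 2 each). The ratio was 1.13 (1.10 to 1.17) within the deep pair and 1.65 (1.61 to 1.70) within the shallow one. limma with the replicate block gave a log2 change of 0.45 ± 0.15 (SE) with an adjusted p of 0.0248, and 5 of 8 settings with the block called it, with adjusted p between 0.0214 and 0.460. Without the shallow AP bursting library the log2 change was -0.18. That value ignores the pairing: it sets the deep AP bursting library against both controls, where the deep library minus the shallow one is log2 -0.72. An antisense gene, Gm10475, overlaps 246 exonic bases of Reln (1.04%).

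Reelin binds the lipoprotein receptors Vldlr and Lrp8, which signal through the adaptor Dab1 to kinases and to the Crk adaptors. Of 9 tested genes of this pathway, limma with the block called 1 higher and 0 lower, a share near the 6.87% of all tested genes, and the authors' deposited table called 0. The called gene was Crkl, a Crk-like adaptor, with 1977 (deep) and 1953 (shallow) normalized reads after AP bursting against 1220 (deep) and 893 (shallow) in controls, a log2 change of 0.91 ± 0.18 (SE). Under scaling to total reads and under a correction for GC content and length, the block called 1 higher and 1 lower in this list. The receptor Lrp8 had 2612 (deep) and 3680 (shallow) normalized reads after AP bursting against 3410 (deep) and 4095 (shallow) in controls, with a block log2 change of -0.27 ± 0.16. Vldlr and Dab1 had block log2 changes of 0.20 ± 0.18 and 0.19 ± 0.17. None of these 3 passed in limma with the block, and they were added outside the naming rule as the core of the pathway.

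Cajal-Retzius cells are another source of reelin and calretinin, and their markers were low. The 4 defining genes Trp73, Lhx1, Lhx5 and Ebf3 summed to 34.6 (deep) and 107.5 (shallow) normalized reads after AP bursting, against 24.0 (deep) and 70.0 (shallow) in controls. The order of these sums over the 4 libraries was that of Reln, and the defining astrocyte genes, given further on, had the same order. Of 11 Cajal-Retzius markers in all, limma with the block called 2 higher and 0 lower, beside 6.87% and 6.1% of tested genes. The 2 were Cxcr4 and Tbr1, both of which other cells also express. Tbr1 was lower in the deep pair, with log2 changes of -0.28 there and 1.76 in the shallow pair. The 11 genes together summed to 2511 (deep) and 6017 (shallow) normalized reads after AP bursting, against 2394 (deep) and 2215 (shallow) in controls. Their part in the result for Reln was not tested.

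The 3 calcium-binding proteins are EF-hand buffers, and none of them passed in any fit. Calb2 (ENSMUSG00000003657), which encodes calretinin, had 2956 (deep) and 3248 (shallow) normalized reads after AP bursting, against 2603 (deep) and 2861 (shallow) in controls. Both AP bursting libraries were above both controls by a small and even margin. AP bursting averaged 3102 ± 207 and control 2732 ± 182 (SD, n = 2 each). The ratio was 1.14 in both pairs, with intervals of 1.084 to 1.189 within the deep pair and 1.072 to 1.202 within the shallow one, and limma with the replicate block gave a log2 change of 0.18 ± 0.17 (SE), adjusted p 0.584. Scaled to total reads, its log2 change was 0.07 within the deep pair and 0.00 within the shallow one.

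Calb1 (ENSMUSG00000028222), which encodes calbindin, had 1473 (deep) and 783 (shallow) normalized reads after AP bursting, against 1670 (deep) and 813 (shallow) in controls. The pairs stood far apart and the groups overlapped. The ratio was 0.88 (0.83 to 0.94) within the deep pair and 0.96 (0.86 to 1.08) within the shallow one, and limma with the replicate block gave a log2 change of -0.12 ± 0.19 (SE), adjusted p 0.792. Correction for GC content and length turned the shallow pair to 0.09. Over unpaired libraries the log2 change was 0.34 without the shallow AP bursting and 0.40 without the deep control library.

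Pvalb (ENSMUSG00000005716), which encodes parvalbumin of fast-spiking basket cells, had 69.3 (deep) and 24.2 (shallow) normalized reads after AP bursting, against 71.9 (deep) and 35.0 (shallow) in controls. These values come from 88, 16, 96 and 32 reads in that order. Exact Poisson 95% intervals were 55.6 to 85.3 (deep) and 13.8 to 39.3 (shallow) normalized reads after AP bursting, and 58.3 to 87.9 (deep) and 23.9 to 49.4 (shallow) in controls, so a difference of this size was not detectable at this depth. The ratio was 0.96 (0.71 to 1.30) within the deep pair and 0.69 (0.35 to 1.30) within the shallow one, with an adjusted p of 0.698 in limma with the replicate block. Over unpaired libraries the log2 change was 0.46 without the shallow AP bursting and 0.23 without the deep control library.

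Of 20 other EF-hand buffers and sensors tested, limma with the block called 1 higher and 1 lower, beside 6.87% and 6.1% of all tested genes, and the authors' deposited table called 0. These shares are near those of all genes. Efhd2 was higher, at 1084 (deep) and 1919 (shallow) normalized reads after AP bursting against 593 (deep) and 783 (shallow) in controls, a log2 change of 1.08 ± 0.19 (SE). Necab3, a neuronal calcium-binding protein, was lower, at 44.9 (deep) and 72.7 (shallow) normalized reads after AP bursting against 107.9 (deep) and 129 (shallow) in controls, a log2 change of -1.03 ± 0.29 (SE).

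Levels can be compared between genes only per length. Per kilobase of exon, the mean of Calb2 was 1780 normalized reads in AP bursting and 1568 in control libraries, above every other gene of the 10. Reln had 446 per kilobase in AP bursting and 306 in control libraries, Lhx6 439 and 396 in AP bursting and control, and Dlx1 310 and 202. By group means these 4 lay above the rest in AP bursting libraries, while in control libraries Calb1 lay above Dlx1. In the deep AP bursting library alone Calb1, at 303.9, lay above Dlx1 at 262 and Reln at 261. Calb1 had 233 in AP bursting and 256 in control, then Dlx2 with 103 and 70.0 and Dlx5 with 89.8 and 66.4. At the low end Pvalb had 44.9 in AP bursting and 51.4 in control, Dlx6 41.2 and 22.7, and Sox6 34.5 and 33.0. Among neighbours in this order, the ranges of the libraries overlapped in both groups for Reln and Lhx6, Dlx1 and Calb1, Dlx2 and Dlx5, and Dlx5 and Pvalb. The lengths are exon unions of GENCODE M21 and may differ from those the authors counted on.

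The pairs of libraries differed more than the treatments for 6 of the 10 genes, a count not made over all tested genes. On the log2 scale, deep minus shallow was -1.61 in AP bursting and -0.83 in control for Dlx2, -1.27 and -0.72 for Reln, and -1.05 and -0.35 for Dlx5. It was 1.48 in AP bursting and 1.02 in control for Pvalb, and 0.91 and 1.04 for Calb1. The deep libraries thus held more Pvalb, Calb1 and Dlx6, and the shallow ones more Reln, Dlx2, Dlx5 and Calb2, whatever the treatment. The difference had the same sign in both groups for 8 of 10, the exceptions being Lhx6 and Sox6. The share of all tested genes with the same sign was not computed. Deep minus shallow correlated at r = 0.878 between the groups over 13648 genes, so such likeness is not particular to the 10. The log2 change was larger in the shallow pair for 8 of 10 genes, beside 50.9% of tested genes. Over the 10, the median was 0.03 within the deep pair and 0.47 within the shallow one, beside 0.01 and -0.02 over all tested genes. Whether the treatment acted differently in the pairs could not be tested, since each pair holds 1 library per group.

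**Figure D3:**
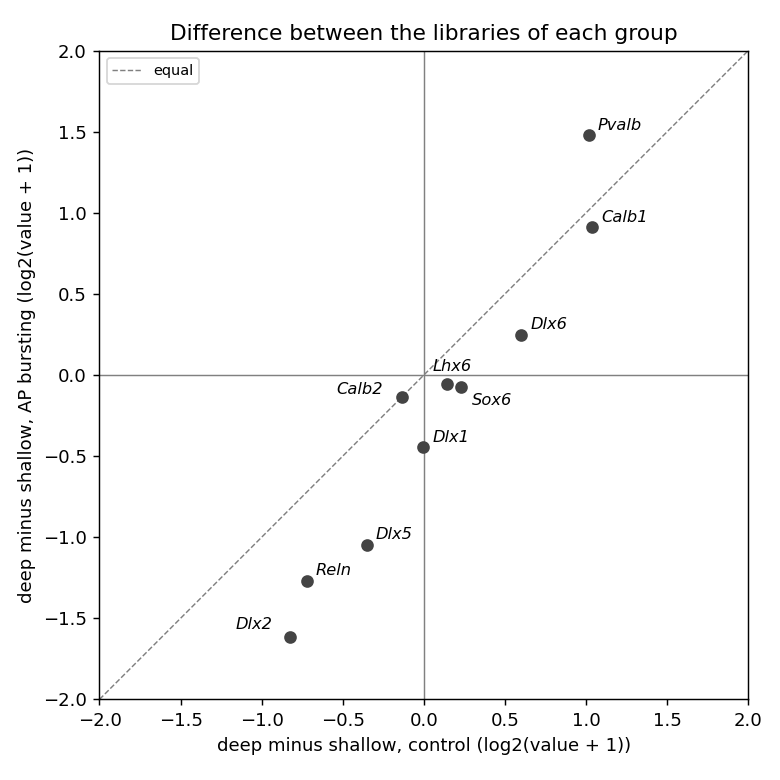
Deep minus shallow library on the log2(normalized reads + 1) scale, AP bursting (vertical axis) against control (horizontal axis), 1 point per gene, with a dashed line of equality. Dlx2, Reln and Dlx5 lie at the lower left and Pvalb and Calb1 at the upper right, so for these genes the libraries differ the same way in both groups.

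Several other genes of GABAergic neurons had like or larger changes, while others did not. GABA is made by Gad1 and Gad2 and loaded into vesicles by Slc32a1. Of 4 resolved genes of GABA synthesis and transport, limma with the block called 2 higher and 0 lower, beside 6.87% and 6.1% of tested genes. The authors' deposited table called 0 of 6. Gad2 had 11898 (deep) and 7643 (shallow) normalized reads after AP bursting, against 8959 (deep) and 4665 (shallow) in controls, a block log2 change of 0.56 ± 0.15 (SE). Slc32a1 had 3686 (deep) and 7761 (shallow) normalized reads after AP bursting, against 3034 (deep) and 4255 (shallow) in controls, a block log2 change of 0.57 ± 0.16. Both were higher in both pairs, though Gad2 was higher in the deep libraries and Slc32a1 in the shallow ones. The resolved genes Slc6a11 and Abat were not called, with block log2 changes of -0.13 ± 0.16 and 0.22 ± 0.16 (SE). Slc6a11 had a ratio of 0.81 within the deep pair and 1.04 within the shallow one. Gad1 could not be resolved into libraries, and its fold was 1.40 in the authors' deposited table, with means of 18649 in AP bursting and 13314 in control.

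Among 21 other transcription factors of interneuron development, limma with the block called 6 higher and 0 lower, beside 6.87% and 6.1% of tested genes. Under scaling to total reads it called 3 higher and 0 lower, and the authors' deposited table called 0. Their median log2 change was 0.24. The 4 largest called changes were those of Nr2f1 and Nr2f2, nuclear receptors of the caudal ganglionic eminence, Sp8, a zinc-finger factor of the same lineage, and Meis2, a homeobox factor. Nr2f1 had 1563 (deep) and 4753 (shallow) normalized reads after AP bursting, against 964 (deep) and 1513 (shallow) in controls, a block log2 change of 1.17 ± 0.18 (SE). Nr2f2 had 993 (deep) and 2086 (shallow) after AP bursting, against 776 (deep) and 648 (shallow) in controls, a block log2 change of 1.02 ± 0.19. Block log2 changes were 0.93 ± 0.27 for Sp8 and 0.78 ± 0.19 for Meis2. Nr2f1 and Nr2f2 are also expressed in hippocampal excitatory neurons and glia.

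Of 29 resolved peptides, enzymes, receptors and channels that mark interneuron classes, limma with the block called 9 higher and 0 lower. The shares over all tested genes were 6.87% and 6.1%. Under scaling to total reads the block called 7 and 0 of the 29. The median log2 change of the list was 0.34 without that scaling. Penk1, the enkephalin precursor, was the 1 gene of this list that the authors' deposited table called, with a 9.34-fold rise and an adjusted p of 0.00016. It had 671 (deep) and 1246 (shallow) normalized reads after AP bursting, against 122 (deep) and 83.1 (shallow) in controls. Crh, a stress peptide, had 22.8 (deep) and 77.2 (shallow) normalized reads after AP bursting against 8.99 (deep) and 6.56 (shallow) in controls. The peptide precursors Pnoc and Tac1 had block log2 changes of 1.40 ± 0.19 and 1.15 ± 0.20 (SE). All 4 were higher in both pairs, as were 22 of the 29, beside 31.6% of tested genes. Of the 29, 3 were lower in both pairs, beside 32.0%. Enkephalin and several of these peptides are also made by excitatory neurons.

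Somatostatin, neuropeptide Y and vasoactive intestinal peptide, added after their values were seen, mark the classes usually set beside parvalbumin. Sst had 5884 (deep) and 11715 (shallow) normalized reads after AP bursting against 4328 (deep) and 8275 (shallow) in controls, with log2 changes of 0.44 within the deep pair and 0.50 within the shallow one and an adjusted p of 0.0199 in limma with the block. Npy and Vip had block log2 changes of 0.52 ± 0.20 and 0.58 ± 0.24 (SE), with adjusted p of 0.064 and 0.0892 in limma. Sst and Npy were higher after AP bursting by nearly equal amounts in both pairs.

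**Figure D4:**
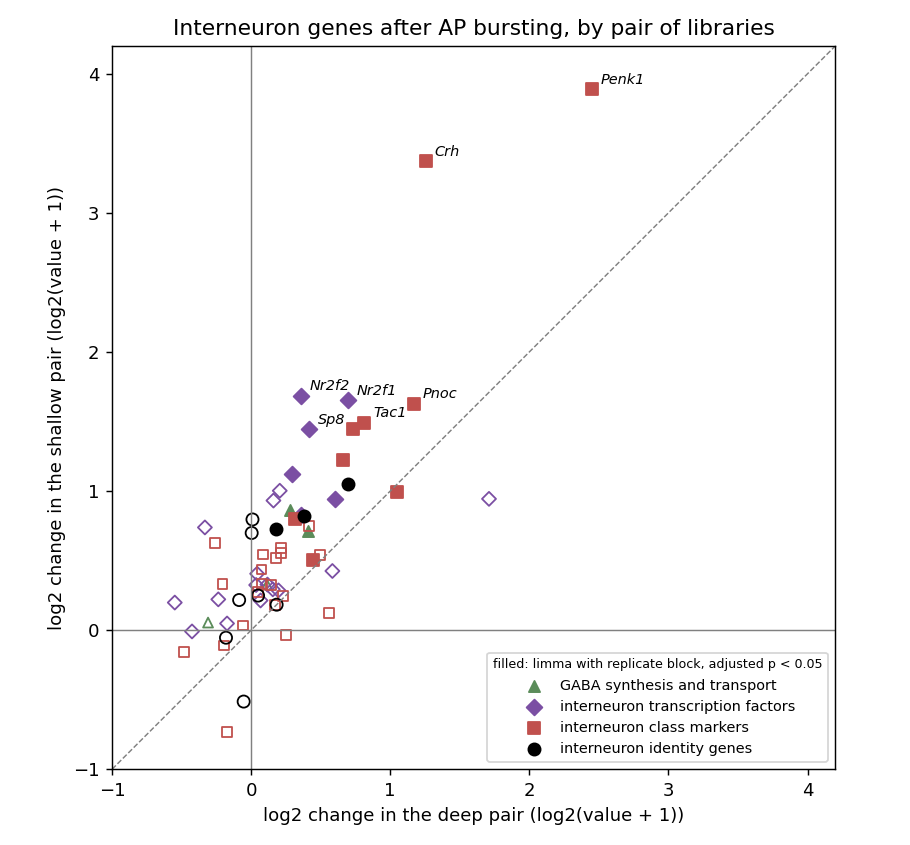
Log2 change after AP bursting in the deep pair (horizontal axis) and the shallow pair (vertical axis) for genes of GABA synthesis and transport (triangles), interneuron transcription factors (diamonds), class markers (squares) and the 10 identity genes (circles). Filled symbols were called by limma with the replicate block. The identity genes lie close to the origin beside Penk1, Crh and Pnoc, and most filled symbols lie above the dashed line of equality.

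Markers of other cell types were also present. The GABAergic markers Gad2 and Slc32a1 summed to 15584 (deep) and 15403 (shallow) normalized reads after AP bursting, against 11992 (deep) and 8920 (shallow) in controls. The 4 defining astrocyte genes summed to 10689 (deep) and 16262 (shallow) normalized reads after AP bursting, against 9191 (deep) and 12080 (shallow) in controls, and limma with the block called 1 of 9 astrocyte markers, Sox9, higher and 0 lower. Markers of glutamatergic neurons went both ways, and of 7 tested limma with the block called 3 higher and 1 lower. Beside this list and the astrocyte list, the shares over all tested genes were 6.87% higher and 6.1% lower. The called glutamatergic markers include Slc17a6, higher in both pairs, and Neurod6, lower in both pairs. Tbr1 was called higher too, but it was lower in the deep pair and higher only in the shallow pair. It is also counted among the Cajal-Retzius markers above. Slc17a6, a vesicular glutamate transporter, had 1263 (deep) and 919 (shallow) normalized reads after AP bursting, against 501 (deep) and 378 (shallow) in controls. Neurod6, a basic helix-loop-helix factor, had 3535 (deep) and 2119 (shallow) after AP bursting, against 7453 (deep) and 4016 (shallow) in controls. The 3 resolved defining genes, Slc17a6, Neurod6 and Neurod2, summed to 5417 (deep) and 5404 (shallow) after AP bursting, against 8808 (deep) and 6778 (shallow) in controls. In each pair Neurod6 alone was lower by more than the whole gap between these sums. The unresolved Slc17a7 and Camk2a had folds of 1.14 and 1.17 in the authors' deposited table, with an adjusted p of 1. Of the defining markers of all types, the microglial gene Cx3cr1 was at 0 in the deep control library. The astrocyte sums were highest in the shallow AP bursting library, as were Reln, Dlx1, Dlx2 and Dlx5. The part of any of these cell types in the results was not tested.

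Averaged over the 4 Dlx genes and centred on the gene, the log2 profile was -0.08 (deep) and 0.64 (shallow) after AP bursting, against -0.35 (deep) and -0.21 (shallow) in controls. Among 13638 non-member genes whose mean reached 50, the nearest by root mean square distance over the 4 libraries were S1pr2, Fgd6, Hs6st1, Zfp536 and March4, at distances between 0.039 and 0.052. The measure rests on 4 libraries and is a description. Slc32a1 stood at rank 346 and Gad2 at rank 7981 of 13638 in nearness to this profile. Of the 6 genes outside the Dlx family, Calb2 and Reln were nearest to it, at distances of 0.28 and 0.29, and Calb1 and Pvalb farthest, at 0.79 and 0.97. The Dlx genes themselves lay at 0.11 for Dlx1, 0.17 for Dlx5, 0.41 for Dlx2 and 0.46 for Dlx6, so Dlx2 and Dlx6 were farther from their own mean than Calb2 and Reln, and the mean is not a profile that all 4 share.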

How the data were processed

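RNA was measured in 4 libraries, 2 per group, of unsorted cultures. Per the labels' protocols, the RNA was treated with DNase and the libraries do not keep strand. Per the submitters' processing notes, reads were handled with DESeq 1.12.0, SAMtools 0.1.19 and TopHat 1.2.0 on build mm9. What counted the reads, and on which annotation, is not given in the sources used here. Per the file headers, the authors deposited for each gene a normalized signal per group, averaged over libraries, with the fold (ratio) between the 2 averages and an adjusted p-value. Log2 changes were computed here.

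Each deposited mean adds 2 libraries, and 1 read of a library is worth a fixed step. Both steps were fitted on low values, and each mean, given to 10 digits, was searched for its single pair of whole read counts. This resolved 23334 AP bursting values (99.5%) and 23171 control values (98.8%). The others lie at 11362 or higher in AP bursting and at 10014.5 or higher in control. By summed signal, the resolved values held 82.1% in AP bursting and 70.2% in control. Scaling to total reads used only genes resolved in both groups, so its totals leave out part of the signal. Of 2000 values moved at random, 1 AP bursting and 2 control values found a pair, and among simulated means 100% of resolved pairs were right. The moved values were all below the group means of Reln, so they do not check genes as abundant as Reln. The simulated means were drawn around reads already resolved.

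limma 3.58.1 in R 4.3.3, with a variance trend, was run on log2(value + 1) for the 20226 genes whose mean reached 1. Tests were two-sided, and p-values were adjusted over all of these by Benjamini-Hochberg, with a threshold of 0.05. The scale understates changes of low genes. The edgeR test named in the plan needs deposited counts per library and was not run. The resolved libraries carry no replicate number. Over 13648 genes whose mean reached 50, deep minus shallow correlated at r = 0.878 between AP bursting and control, across genes that are not independent replicates. Deep and shallow libraries were paired on that ground, and the block is the pair. On simulated libraries the fit with the block called 29 of 34 genes raised 2-fold and 15 of 33 raised 1.5-fold, and 2 of 20026 unchanged genes, while the fit without it called 0. The simulated libraries had the same pair difference in both groups and the same dispersion for every gene, as the block model assumes. These counts are therefore not error rates for the real libraries, where changes differed between pairs. Counting intervals are exact at 95%. Gene positions, overlaps and lengths come from GENCODE M21 and names from the deposited table.

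The genes and lists were chosen with earlier results of these data known. Named were the 10 genes, Fos as a check of the stimulus, up to 4 genes per list past the threshold in the authors' table or in limma with the block, defining markers of cell types, and the 5 genes nearest to the Dlx profile. Lists of oligodendrocyte, microglia, progenitor, vascular and principal-cell markers were measured too. limma with the block called 0 of 8, 1 of 8, 0 of 8, 0 of 7 and 1 of 12 of them higher, in that order, and 0 lower. The shares over all tested genes were 6.87% and 6.1%. The lists of GABAergic, Cajal-Retzius, astrocyte and excitatory genes stand with the results.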

Additional observations from a re-analysis of the deposited data

How the results depend on the processing

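The result for the 10 genes depends on the pairing. Without the replicate block limma called 2 genes higher in the whole table and 0 of the 10. With the block it called 1390 genes higher and 1234 lower, and 3 of the 10 higher. The block with a pseudocount of 0.5 called 1383 higher and 1239 lower (3 of the 10), and with a pseudocount of 5 it called 1193 and 913 (1 of the 10, Dlx1). With a mean of at least 10 the block called 1278 higher and 1082 lower (3 of the 10), and with a mean of at least 50 it called 1126 and 960 (2 of the 10, Dlx1 and Reln). With a correction for GC content and length the block called 1428 higher and 1444 lower (3 of the 10), and that correction without the block called 62 higher. With scaling to total reads the block called 995 higher and 1926 lower (0 of the 10). Without a block, a pseudocount of 0.5, a mean of at least 10 and a fit with no variance trend each called 0 genes higher, and the block with no variance trend called 0 higher, with 3268 at an unadjusted p below 0.05. The cause of these shifts was not tested. The block fits with another pseudocount or minimum mean, and the fits with the GC and length correction, were not planned.

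The log2 change of Sox6 turned to -0.083 under scaling to total reads, with and without the block. Leaving out 1 library at a time, without the block, limma called 2 to 28 genes higher, 0 lower and 0 of the 10, the lone library being assumed to vary like the other group and the pairing being ignored. The log2 change then ran between -0.18 and 1.09 for Reln, -1.02 and 0.46 for Pvalb, -0.64 and 0.40 for Calb1, -0.40 and 1.21 for Dlx2, -0.17 and 0.87 for Dlx5 and -0.050 and 0.18 for Sox6. It stayed above 0 for Dlx1 (0.38 to 0.82), Dlx6 (0.57 to 1.17), Lhx6 (0.08 to 0.22) and Calb2 (0.12 to 0.25), and the median over the 10 ran between 0.12 and 0.50. At a threshold of 0.1 the authors' deposited table held 160 genes higher and 0 lower. Depth limits Pvalb and Dlx6 most.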
